A study of Mus musculus with 12 samples.

Results

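The 50 genes described here encode the proteins that mark replication origins, fire them, copy DNA at the moving fork and rebuild chromatin behind it. They were taken by name, not by a cut on their values, from 54232 genes in a count table of mouse CD4+ T cells. The MCM helicase genes were left out of the choice. Earlier results of these data were known when the list was made. All 50 had a row, and all 50 passed a filter on low counts that kept 15679 genes for testing. The mutant cells were naive CD4+ T cells, purified from spleen and pLN, with the genotype label Ddx55-KO (here KO). The control cells were the same kind of cells from WT mice. Ddx55 encodes a DEAD-box RNA helicase, known in human cells to act while the large ribosomal subunit is assembled. Cells of each genotype received plate-bound anti-CD3 at 5 ug/ml with anti-CD28 at 2.5 ug/ml, a mimic of the antigen signal, for 8 h or 24 h, or were taken at 0 h (resting). Total RNA after removal of ribosomal RNA was sequenced. There were 2 libraries in each of 6 groups: KO and WT at 0 h, KO and WT at 8 h, and KO and WT at 24 h. The sources used here do not give the strain and age of the mice, the Ddx55 allele or any Cre driver, nor do they say if replicate libraries are from different mice. The p-values therefore measure the spread between these libraries, which may be technical.

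A cell that is about to divide first marks origins with the origin recognition complex (ORC), on which the MCM helicase is loaded, and geminin blocks loading once S phase has begun. The Cdc7-Dbf4 kinase and firing factors such as treslin then bring GINS to MCM and the fork starts to move. Primase and polymerase alpha lay primers, polymerase epsilon extends the leading strand and polymerase delta the lagging strand, both held on DNA by the PCNA ring. Behind the fork, histone chaperones rebuild nucleosomes and Dnmt1 copies CpG methylation. Naive T cells rest outside the cell cycle, and an antigen signal takes them through G1 into S phase. Many of these genes are known targets of E2F transcription factors, which act at that step.

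Because the E2F site is the sequence element best known to be shared by replication genes, the start regions of the genes were read for it. RefSeq promoter windows (build GRCm38.p6, from 250 bases before to 50 bases after the gene's start, 1 window per symbol) were available for 40 of the 50 genes. The 8-letter E2F words TTTGGCGC, TTTGCCGC, TTTCGCGC and TTTCCCGC, searched on both strands, occurred in 10 of the 40 windows (25.0%), against 626 of 27025 windows of all genes (2.32%). The same words without their first T, which every 8-letter match also contains, occurred in 23 of 40 windows (57.5%), against 9.69% of all windows. The pentamer CCAAT, the core of the element bound by NF-Y, occurred in 23 of 40 windows (57.5%), against 37.9% of all windows. The 30 bases around the first 8-letter word are printed for the 10 genes that hold one, since these are the stretches that carry the shared element. They are written 5′ to 3′ on the gene's strand, with the word, or its reverse complement, in capitals.
Orc3: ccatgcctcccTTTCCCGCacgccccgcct
Orc1: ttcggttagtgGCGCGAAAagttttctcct
Clspn: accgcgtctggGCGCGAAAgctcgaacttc
Rfc3: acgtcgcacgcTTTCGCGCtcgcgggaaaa
Pold1: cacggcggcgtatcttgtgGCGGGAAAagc
Pold3: gagcgaagctgTTTCCCGCcggcgggagct
Gins3: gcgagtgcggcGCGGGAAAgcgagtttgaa
Pclaf: gcttggagcgcGCGGGAAAgagacccattt
Pole2: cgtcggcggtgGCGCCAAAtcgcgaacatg
Pola1: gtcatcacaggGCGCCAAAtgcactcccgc

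In the order of the list, these stretches lie at chr4:34614965-34614994 (Orc3), chr4:108579416-108579445 (Orc1), chr4:126556990-126557019 (Clspn), chr5:151651200-151651229 (Rfc3), chr7:44548766-44548795 (Pold1), chr7:100121467-100121496 (Pold3), chr8:95633507-95633536 (Gins3), chr9:65890307-65890336 (Pclaf), chr12:69228162-69228191 (Pole2) and chrX:93632275-93632304 (Pola1). The Rfc3 window holds 2 words, of which the second stands in lower case beside the first. The list includes Orc1, Clspn and Pclaf, which fell most in their roles at 24 h, and Orc3, whose RNA did not pass the test then. Ticrr, Lig1 and Tcf19 also fell most in their roles, and their windows hold no 8-letter word. A match is a description of these letters and not a measured binding site.

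The libraries held between 16810375 and 19126498 counts assigned to genes. Ddx55 had 19.5 and 18.9 CPM in KO cells at 0 h, against 45.3 and 51.1 CPM in WT cells. At 24 h it had 14.7 and 14.4 CPM in KO cells, against 52.8 and 55.2 CPM in WT cells. Its log2 fold change was -1.33 ± 0.10 at 0 h, -1.92 ± 0.11 at 8 h and -1.89 ± 0.11 at 24 h, so some Ddx55 RNA remained in every KO library. The T cell markers were high in all libraries, with a summed level of 10 markers between 3483 and 5989 CPM. The 7 B cell markers summed to 60.2 to 536 CPM over the 12 libraries, almost all of it Ighm, the immunoglobulin mu heavy chain, with each of the others at most 3.96 CPM. Summed markers of granulocytes and basophils were higher in each KO library than in the WT libraries of the same time, and their values stand beside the 0 h comparison below. RNA levels are given as CPM (counts scaled to the library total and TMM factor). Tests are edgeR's quasi-likelihood test, two-sided, with Benjamini-Hochberg adjusted p over all 15679 genes and a threshold of 0.05, and a fold change is given with its standard error.

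At 24 h of stimulation nearly the whole replication set was lower in KO than in WT cells. The 50 genes together made up 1834 and 1854 CPM in the KO libraries, against 9060 and 8719 CPM in the WT libraries. Of the 50 genes, 47 fell and 0 rose, where 20.7% of all genes tested fell, 17.9% rose and 38.5% changed in either direction. Beside that 0, 0 genes were higher at an unadjusted p under 0.05 in edgeR, and DESeq2 also called 0 higher and 47 lower. The median log2 fold change was -2.34 over the 50 genes and 0.02 over all genes tested, and the median KO level was 19.7% of the WT level. In 48 genes both KO libraries lay below both WT libraries, where 35.5% of all genes did so. In the other 2, Orc4 and Orc5, both KO libraries lay above both WT libraries, as for 37.5% of all genes. The falls ran from -0.69 for Orc2 to -4.61 for Clspn on the log2 scale. In a bulk sample, fewer cells in cycle and less RNA per cell cannot be told apart.

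**Figure D1:**
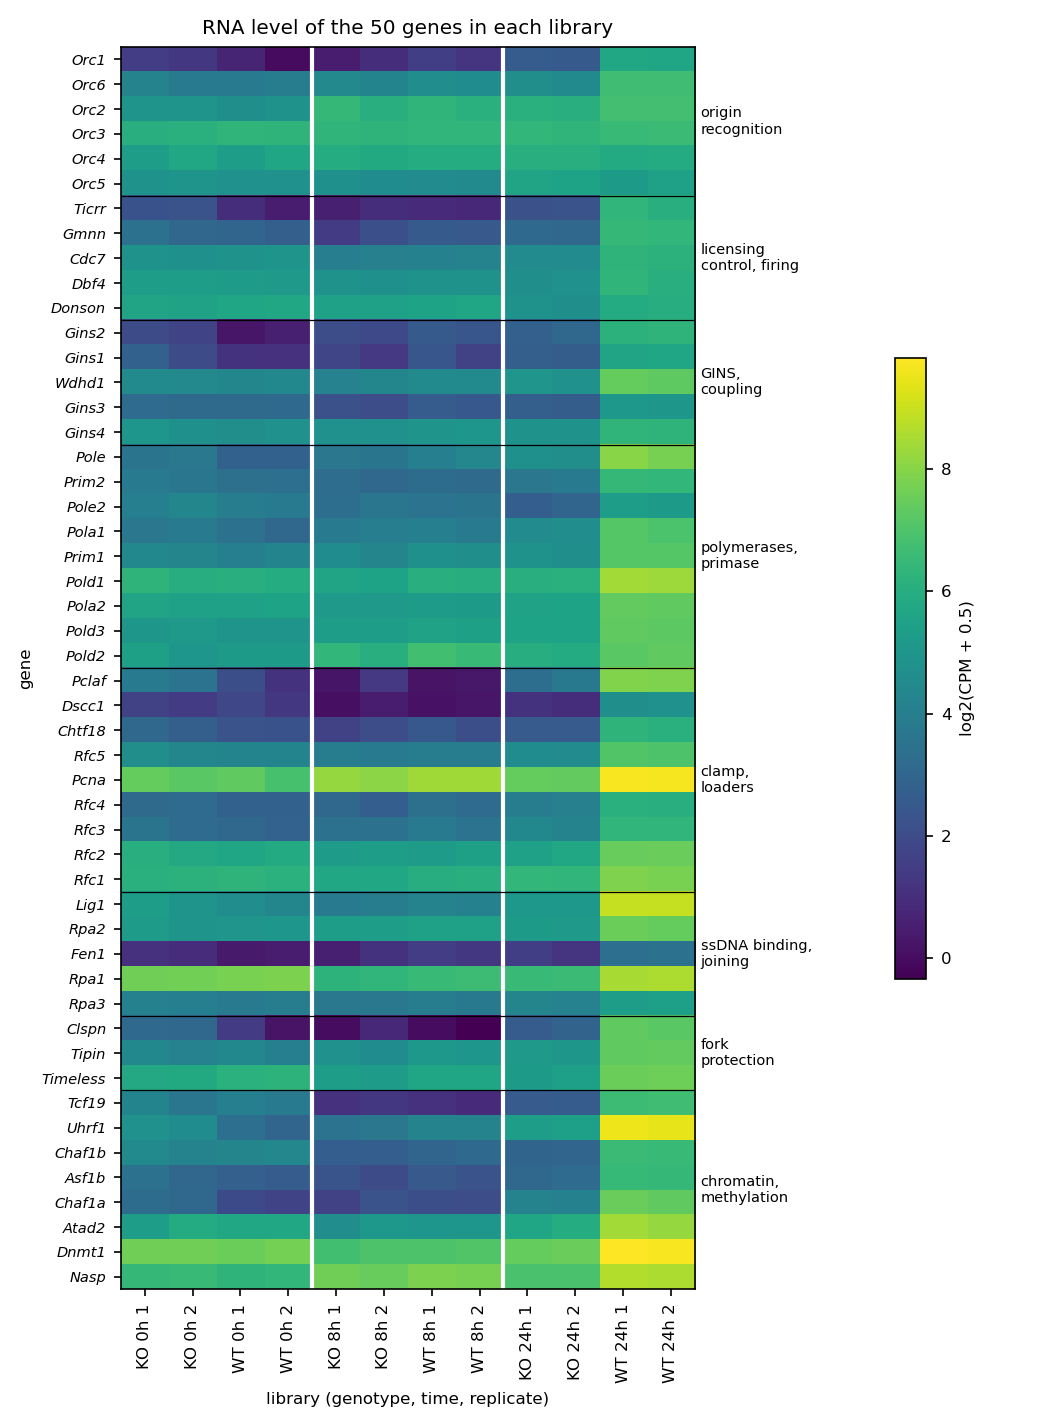
Level of each of the 50 genes (rows, grouped by role) in each of the 12 libraries (columns, KO left of WT at 0, 8 and 24 h), as log2(CPM + 0.5) on the colour scale. The 2 WT columns at 24 h are brighter than the KO columns in every role, least so in the rows of Orc2 and Orc3, and not in those of Orc4 and Orc5.

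The 6 subunits of ORC, which marks origins, divided into 3 that fell and 3 that did not pass the test at 24 h. Orc1 (chr4:108579423-108614833, GRCm38), the subunit that in mammalian cells is known to be made anew each cycle, had 5.66 and 5.33 CPM in the KO libraries, against 52.1 and 48.9 CPM in the WT libraries. The KO libraries thus held 10.9% of the WT mean, with no overlap (log2 fold change -3.20 ± 0.22, edgeR adjusted p = 4.82e-08). Orc6, the smallest subunit, had 25.1 and 22.1 CPM in the KO libraries, against 105 and 105 CPM in the WT libraries (log2 fold change -2.15 ± 0.14, edgeR adjusted p = 1.67e-08). Orc2 had 69.6 and 66.8 CPM in the KO libraries, against 109.5 and 109.9 CPM in the WT libraries, again with no overlap, and a smaller fall of -0.69 ± 0.11 (edgeR adjusted p = 0.000237).

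Orc3, Orc4 and Orc5, which form the body of the complex with Orc2, did not pass the test between genotypes at any of the 3 times. Orc4 (chr2:48902824-48950277, GRCm38) had 64.3 and 66.8 CPM in the KO libraries, against 57.7 and 60.7 CPM in the WT libraries (log2 fold change 0.15 ± 0.13, edgeR adjusted p = 0.403). Orc4 overlaps the genes Acvr2a and Mbd5, and the sources used here do not say if reads were counted by strand. Orc5 had 48.1 and 46.0 CPM in the KO libraries, against 35.9 and 43.9 CPM in the WT libraries (log2 fold change 0.24 ± 0.12, edgeR adjusted p = 0.119). Without WT 24 h replicate 2, Orc5 passed as higher in KO with a log2 fold change of 0.40 (edgeR adjusted p = 0.0467). Orc3 had 83.7 and 79.6 CPM in the KO libraries, against 93.5 and 95.4 CPM in the WT libraries (log2 fold change -0.21 ± 0.08, edgeR adjusted p = 0.0584), and it passed as lower with RLE size factors (adjusted p = 0.0397), in the fit of the 24 h libraries alone (0.0238) and without either KO 0 h library (0.0362 and 0.0346). In WT cells between 8 and 24 h, Orc1 (4.55) and Orc6 (2.11) rose far more on the log2 scale than Orc5 (0.81), Orc2 (0.56) and Orc3 (0.22), and Orc4 (-0.05) did not pass the test. Both comparisons use the WT 24 h libraries, so these values stand side by side and are not independent.

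**Figure D2:**
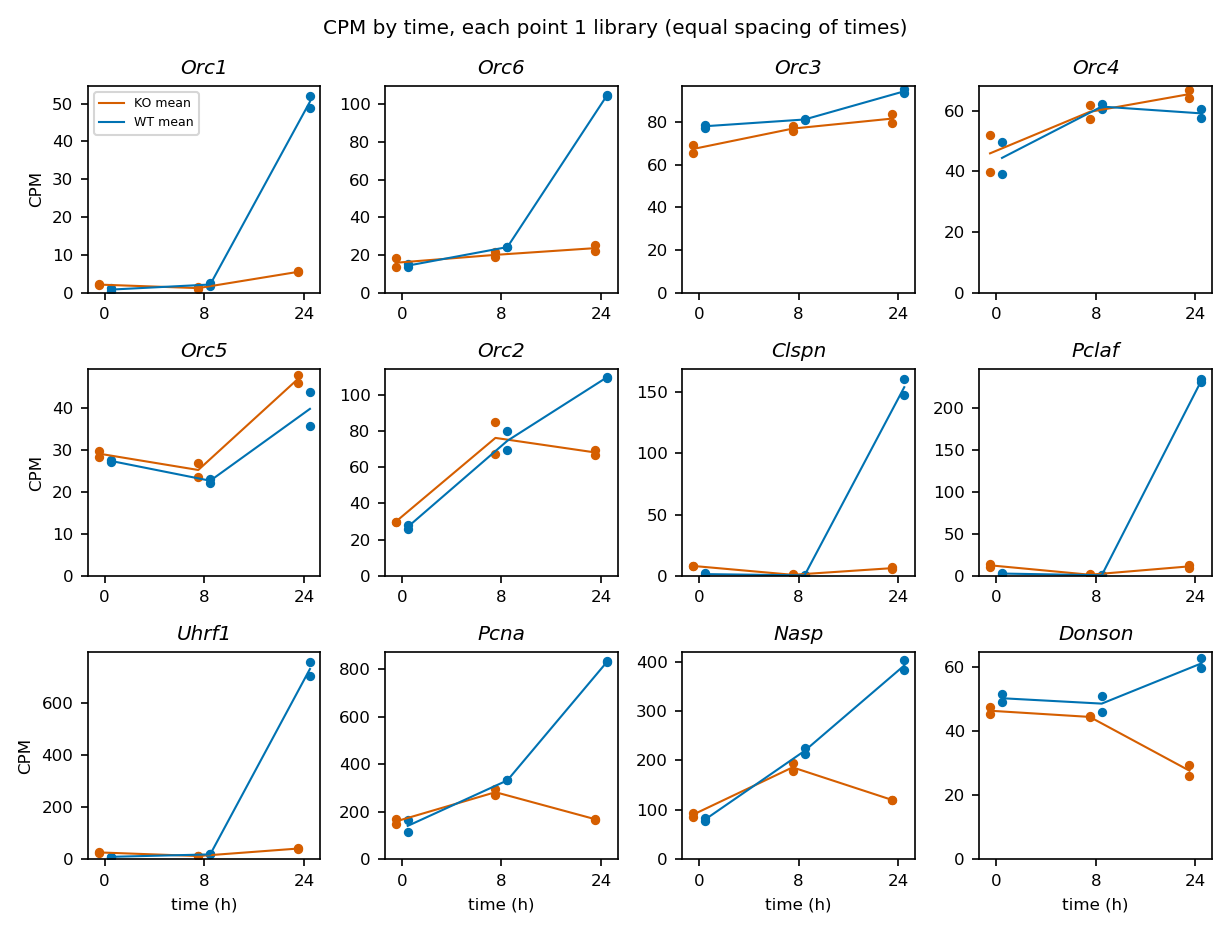
CPM of the 6 ORC genes and of 6 further genes at 0, 8 and 24 h (equally spaced), with 1 point per library and lines through the means of KO (orange) and WT (blue). WT lines climb steeply after 8 h for Orc1, Orc6, Clspn, Pclaf, Uhrf1, Pcna and Nasp, while the KO lines stay far below them and, for Pcna, Nasp and Donson, end below their 8 h level.

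The 5 genes that control licensing and firing all fell at 24 h. Ticrr, which encodes treslin, a factor that brings Cdc45 and GINS to the loaded helicase, had 4.03 and 4.26 CPM in the KO libraries, against 80.6 and 64.8 CPM in the WT libraries. The KO mean was 5.69% of the WT mean (log2 fold change -4.13 ± 0.20, edgeR adjusted p = 1.03e-09). Gmnn, which encodes geminin, the inhibitor of the loader Cdt1, had 8.27 and 7.92 CPM in the KO libraries, against 86.0 and 83.9 CPM in the WT libraries (log2 fold change -3.39 ± 0.19, edgeR adjusted p = 5.9e-09). The genes of the Cdc7-Dbf4 kinase fell less, by 1.69 for Cdc7 and 1.45 for Dbf4 on the log2 scale. Donson, which helps to bring GINS to the helicase, changed least in this role and had 29.3 and 26.0 CPM in the KO libraries, against 59.6 and 62.7 CPM in the WT libraries (log2 fold change -1.15 ± 0.10, edgeR adjusted p = 5.96e-07). The KO and WT libraries did not overlap in any of the 5 genes. Donson overlaps the genes Son and Atp5o, and the sources used here do not say if reads were counted by strand.

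The GINS genes and Wdhd1, which couples the helicase to polymerase alpha, fell in 5 of 5 cases. Gins2 had 6.42 and 8.13 CPM in the KO libraries, against 72.7 and 77.6 CPM in the WT libraries (log2 fold change -3.37 ± 0.16, edgeR adjusted p = 1.03e-09). Gins1 had 6.10 and 5.82 CPM in the KO libraries, against 47.6 and 50.1 CPM in the WT libraries (log2 fold change -3.03 ± 0.27, edgeR adjusted p = 1.35e-06). Gins4 fell least among the 4 subunits and had 28.0 and 28.0 CPM in the KO libraries, against 79.3 and 76.6 CPM in the WT libraries (log2 fold change -1.48 ± 0.11, edgeR adjusted p = 6.49e-08). Gins3 had 6.10 and 5.87 CPM in the KO libraries, against 33.3 and 32.7 CPM in the WT libraries (log2 fold change -2.46 ± 0.15), and Wdhd1 had 31.0 and 27.6 CPM in the KO libraries, against 173 and 159.6 CPM in the WT libraries (-2.50 ± 0.10). The 4 subunits of this complex thus had KO levels between 9.68% and 35.9% of WT, and the order of their falls was that of their WT level at rest, where Gins2 had 0.204, Gins1 1.12, Gins3 3.11 and Gins4 19.5 CPM per kb of exon.

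All 9 genes of polymerases and primase fell. Pole, the catalytic subunit of the leading-strand polymerase epsilon, had 26.4 and 25.0 CPM in the KO libraries, against 262 and 216 CPM in the WT libraries (log2 fold change -3.22 ± 0.13, edgeR adjusted p = 2.3e-10). Prim2, the large subunit of primase, had 12.6 and 14.5 CPM in the KO libraries, against 86.5 and 83.0 CPM in the WT libraries (log2 fold change -2.65 ± 0.13, edgeR adjusted p = 1.15e-09). Pold2, an accessory subunit of polymerase delta, fell least and had 62.7 and 59.4 CPM in the KO libraries, against 151 and 164 CPM in the WT libraries (log2 fold change -1.37 ± 0.15, edgeR adjusted p = 6.86e-06). Pola1, the catalytic subunit of polymerase alpha, had 22.9 and 24.8 CPM in the KO libraries, against 140.0 and 123 CPM in the WT libraries (log2 fold change -2.46 ± 0.14). Pold1, the catalytic subunit of polymerase delta, had 66.3 and 68.7 CPM in the KO libraries, against 340.4 and 322 CPM in the WT libraries (log2 fold change -2.29 ± 0.10). Both of these and Pola2, Prim1, Pold3 and Pole2 had log2 fold changes between -2.53 and -1.75. Pole2 overlaps a gene model on the same strand, Gm49384, so its counts may be split between them.

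All 9 genes of the sliding clamp, its loaders and its partner Pclaf fell. Pclaf (chr9:65890237-65903266, GRCm38), which encodes the PCNA-associated factor PAF15, had 9.58 and 13.1 CPM in the KO libraries, against 235 and 232 CPM in the WT libraries. Its KO mean was 4.87% of the WT mean (log2 fold change -4.36 ± 0.31, edgeR adjusted p = 7.31e-06). Dscc1, a subunit of the alternative loader that also acts in cohesion, had 1.74 and 1.51 CPM in the KO libraries, against 26.2 and 27.7 CPM in the WT libraries (log2 fold change -4.05 ± 0.25, edgeR adjusted p = 1.51e-08). Its partner Chtf18 had 5.55 and 5.44 CPM in the KO libraries, against 77.5 and 68.2 CPM in the WT libraries (log2 fold change -3.73 ± 0.18). The canonical loader subunits Rfc1 to Rfc5 fell less, between -2.47 for Rfc5 and -1.43 for Rfc1. The 3 small subunits between them, Rfc2, Rfc3 and Rfc4, had KO levels of 27.3%, 24.1% and 23.3% of the WT mean. Rfc1, the large subunit, had 83.6 and 81.7 CPM in the KO libraries, against 229 and 216 CPM in the WT libraries (edgeR adjusted p = 1.3e-08). Pcna itself had 169 and 167 CPM in the KO libraries, against 835 and 829 CPM in the WT libraries (log2 fold change -2.31 ± 0.14). Mouse Pcna has processed pseudogenes in the annotation (Pcna-ps1 and others) with which it may share reads.

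The 5 genes for single-strand binding and Okazaki fragment joining all fell. Lig1 (chr7:13277283-13311433, GRCm38), the ligase that seals Okazaki fragments, had 33.5 and 33.8 CPM in the KO libraries, against 491 and 485 CPM in the WT libraries. The KO mean was 6.89% of the WT mean and the replicates lay close together (log2 fold change -3.86 ± 0.13, edgeR adjusted p = 7.28e-11). Rpa2, the middle subunit of the single-strand binding protein RPA, had 35.9 and 34.1 CPM in the KO libraries, against 185 and 173 CPM in the WT libraries (log2 fold change -2.35 ± 0.11, edgeR adjusted p = 7.22e-10). Rpa1, the large subunit, had 93.1 and 96.3 CPM in the KO libraries, against 360.1 and 381 CPM in the WT libraries (log2 fold change -1.97 ± 0.09). Rpa3, the small subunit, had 19.2 and 17.3 CPM in the KO libraries, against 40.5 and 42.2 CPM in the WT libraries (log2 fold change -1.18 ± 0.12, edgeR adjusted p = 2.67e-06). Fen1, the flap nuclease that trims the fragments before ligation, was counted at only 2.39 and 1.78 CPM in KO and 9.85 and 10.4 CPM in WT libraries. Its log2 fold change was -2.28 ± 0.28. The gene overlaps Tmem258 and the gene model Gm10143, so this low count may not stand for its whole RNA.

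All 3 fork protection genes fell. Clspn (chr4:126556935-126593903, GRCm38), which encodes claspin, the adaptor that carries the ATR signal to Chk1 at a stalled fork, fell most of the 50 and had 5.61 and 7.0 CPM in the KO libraries, against 160.5 and 147 CPM in the WT libraries. The KO mean was 4.10% of the WT mean (log2 fold change -4.61 ± 0.28, edgeR adjusted p = 6.3e-07). Timeless and Tipin, which form a complex with each other at the fork, had like fold changes. Tipin had 34.1 and 32.6 CPM in the KO libraries, against 161 and 167 CPM in the WT libraries (log2 fold change -2.30 ± 0.13, edgeR adjusted p = 4.7e-09). Timeless had 36.1 and 41.2 CPM in the KO libraries, against 186 and 189 CPM in the WT libraries (log2 fold change -2.28 ± 0.10, edgeR adjusted p = 3.58e-10).

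The 8 genes of chromatin assembly and methylation maintenance all fell, with a median log2 fold change of -3.35, against -2.34 over the 50 genes; this difference was not tested. Tcf19, a chromatin-associated gene of the G1-to-S transition, had 5.44 and 5.60 CPM in the KO libraries, against 97.4 and 105 CPM in the WT libraries (log2 fold change -4.20 ± 0.18, edgeR adjusted p = 4.02e-10). Uhrf1 (chr17:56303321-56323486, GRCm38), which reads half-methylated CpG sites and recruits Dnmt1, had 39.5 and 41.4 CPM in the KO libraries, against 756 and 704 CPM in the WT libraries. Its KO mean was 5.54% of the WT mean (log2 fold change -4.17 ± 0.12, edgeR adjusted p = 5.28e-11). Dnmt1, the enzyme itself, had 169.7 and 179.7 CPM in the KO libraries, against 906 and 852 CPM in the WT libraries and a smaller fall of -2.33 ± 0.11 (edgeR adjusted p = 6.36e-10). The subunits of CAF-1, which deposits new H3-H4 at the fork, had log2 fold changes of -3.30 ± 0.15 for Chaf1a and -3.69 ± 0.13 for Chaf1b. The histone chaperone Asf1b, which hands H3-H4 to CAF-1, had 7.84 and 8.67 CPM in the KO libraries, against 87.4 and 87.0 CPM in the WT libraries (log2 fold change -3.40 ± 0.17). Atad2, an ATPase that binds acetylated histones, had 51.1 and 61.6 CPM in the KO libraries, against 342 and 301 CPM in the WT libraries (log2 fold change -2.51 ± 0.20). Nasp, which keeps a reserve of soluble histones, fell least and had 119.7 and 119.8 CPM in the KO libraries, against 403 and 382 CPM in the WT libraries (log2 fold change -1.71 ± 0.09, edgeR adjusted p = 2.45e-09). KO and WT libraries did not overlap in any of the 8.

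**Figure D3:**
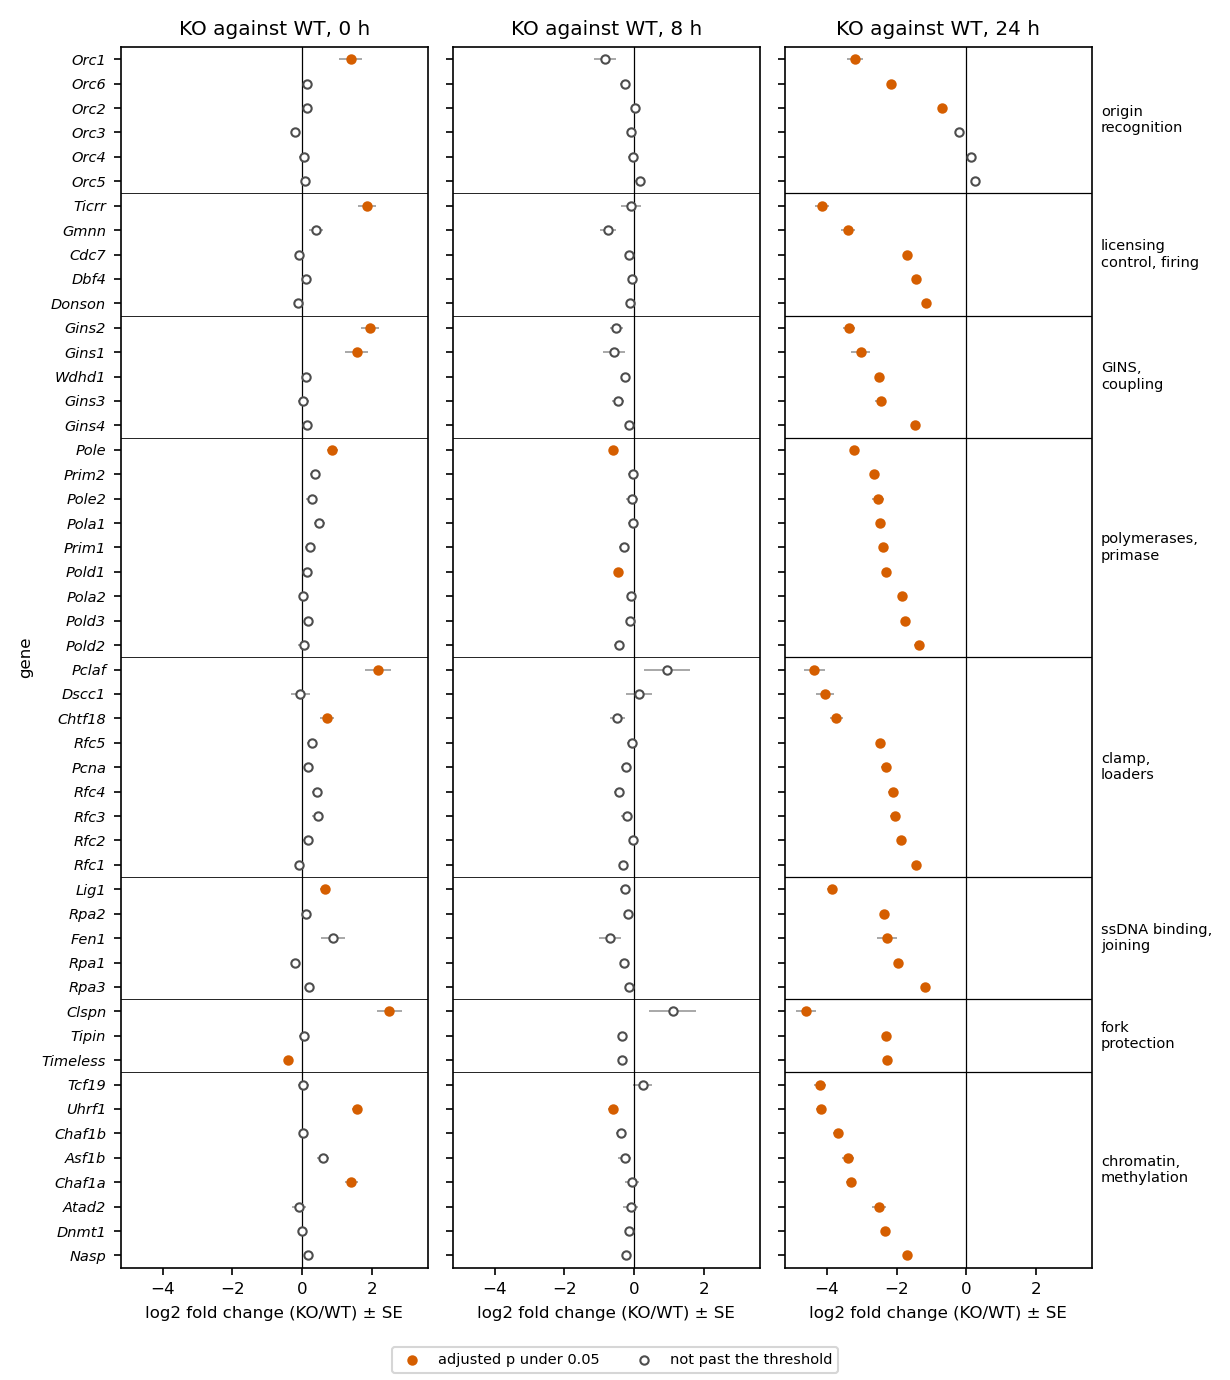
Log2 fold change of KO over WT ± SE for each of the 50 genes at 0 h (left), 8 h (middle) and 24 h (right), with filled points for an edgeR adjusted p under 0.05. At 24 h 47 points are filled and all of these lie left of 0. At 8 h 3 are filled, all left of 0, and at 0 h 12 are filled, of which 11 lie right of 0.

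Changes over time were next read within each genotype. Between 0 and 8 h, 8 genes rose and 29 fell in KO cells, where 28.6% of all genes rose, 32.9% fell and 61.5% changed in either direction, with a median log2 change of -0.52 against -0.10 over all genes. Clspn (-3.22 ± 0.39), Pclaf (-3.20 ± 0.41) and Tcf19 (-3.08 ± 0.21) fell most, and Orc2 (1.35 ± 0.12), Nasp (1.05 ± 0.09) and Pold2 (0.98 ± 0.15) rose most. The summed granulocyte markers went from 525 and 532 CPM at 0 h to 19.1 and 50.3 CPM at 8 h in KO cells. In WT cells they went from 57.8 and 14.0 CPM to 1.93 and 1.41 CPM. Of 20 genes of G2 and mitosis, 19 fell in KO and 11 in WT cells over this interval. The part of a change in cell mix was not tested. Without KO 8 h replicate 1, the 8 that rose became 4. From 8 to 24 h, 33 genes rose and 4 fell in KO cells, where 18.9% of all genes rose, 15.6% fell and 34.4% changed in either direction. The median log2 change was 0.64 over the 50 genes, those that fell or did not pass included. Pclaf (3.05 ± 0.41), Clspn (2.86 ± 0.41), Chaf1a (2.30 ± 0.17) and Orc1 (2.19 ± 0.28) rose most. Uhrf1 is an example: it had 39.5 and 41.4 CPM in KO cells at 24 h, against 11.1 and 12.5 CPM in KO cells at 8 h (log2 change 1.78 ± 0.12). In WT cells it had 756 and 704 CPM at 24 h, against 18.1 and 17.9 CPM at 8 h (log2 change 5.34 ± 0.13). The median gene gained, in CPM, 5.63% of what it gained in WT cells.

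In WT cells, 19 genes rose and 15 fell between 0 and 8 h, where 28.3% of all genes rose, 33.6% fell and 61.9% changed in either direction, and the median log2 change was 0.05 against -0.15 over all genes. Risers at 8 h included Gins2 (2.57 ± 0.24), Pcna (1.25 ± 0.13), Nasp (1.46 ± 0.09) and Uhrf1 (1.06 ± 0.13). Genes that fell included Tcf19 (-3.28 ± 0.22), Pclaf (-1.95 ± 0.58), Dscc1 (-1.92 ± 0.32) and Chaf1b (-1.34 ± 0.13). From 8 to 24 h, 49 of 50 genes rose in WT cells and 0 fell, where 24% of all genes rose, 19.3% fell and 43.3% changed in either direction. Here too 0 genes were lower at an unadjusted p under 0.05 in edgeR, and DESeq2 called 0 lower. The median log2 change over that interval was 2.53, against 0 over all genes. Clspn had 160.5 and 147 CPM at 24 h, against 0.496 and 0.293 CPM at 8 h, and Pclaf had 235 and 232 CPM at 24 h, against 0.661 and 0.761 CPM at 8 h. Their log2 changes of 8.57 ± 0.40 and 8.35 ± 0.43 were the largest of the 50.

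Among the 49 genes that rose in WT cells from 8 to 24 h, 33 also rose in KO cells, 12 did not pass the test there and 4 fell. These 4 were Pcna (-0.75 ± 0.13), Pole2 (-0.70 ± 0.17), Donson (-0.69 ± 0.10) and Nasp (-0.63 ± 0.09). Pcna had 169 and 167 CPM in KO cells at 24 h, against 296 and 268 CPM in KO cells at 8 h. Nasp had 119.7 and 119.8 CPM in KO cells at 24 h, against 194 and 178 CPM at 8 h. Both had risen between 0 and 8 h in KO cells, Pcna by 0.83 ± 0.13 on the log2 scale, so that they peaked at 8 h there and at 24 h in WT cells. Orc5 rose in both genotypes, with log2 changes of 0.90 ± 0.12 in KO and 0.81 ± 0.12 in WT cells from 8 to 24 h. The difference between genotypes over this interval, tested as an interaction, was negative and past the threshold for 47 of 50 genes and positive for 0, where 8.96% of all genes were called as negative, 5.49% as positive and 14.4% in either direction. Beside that 0, edgeR gave 0 at an unadjusted p under 0.05 and DESeq2 called 0. The same 3 ORC genes, Orc3 (-0.13), Orc4 (0.19) and Orc5 (0.08), did not pass it.

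**Figure D4:**
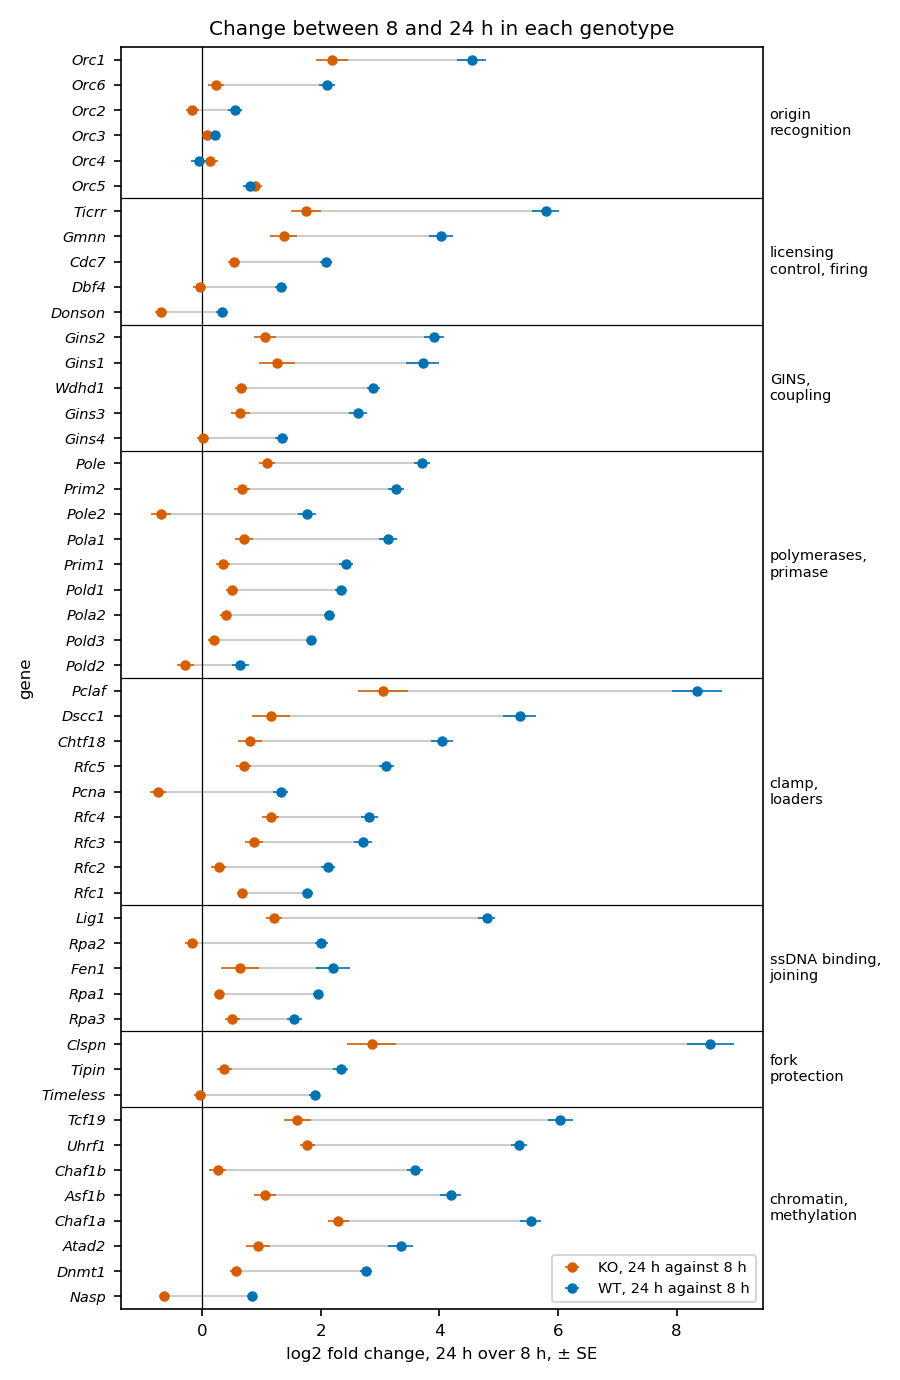
Log2 change from 8 to 24 h ± SE of each of the 50 genes in KO (orange) and WT cells (blue), with a grey line joining the 2 genotypes. The KO points (median 0.64) lie left of the WT points (median 2.53), except for Orc4 and Orc5.

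At 8 h few of the genes passed the test. In KO cells 3 genes were lower and 0 higher than in WT cells, where 0.746% of all genes were lower, 1.9% higher and 2.65% changed in either direction. The median log2 fold change was -0.19 over the 50 genes and 0.00 over all genes. Beside the 0, DESeq2 called 0 higher and edgeR at an unadjusted p under 0.05 gave 0 higher and 19 lower. Uhrf1 had 11.1 and 12.5 CPM in the KO libraries, against 18.1 and 17.9 CPM in the WT libraries (log2 fold change -0.61 ± 0.13, edgeR adjusted p = 0.0212). Pold1 had 47.9 and 47.0 CPM in the KO libraries, against 66.5 and 63.9 CPM in the WT libraries (log2 fold change -0.46 ± 0.10, edgeR adjusted p = 0.0263). Pole had 12.6 and 11.6 CPM in the KO libraries, against 16.2 and 20.3 CPM in the WT libraries (log2 fold change -0.59 ± 0.14, edgeR adjusted p = 0.0324). In all 3 the KO libraries lay below the WT libraries without overlap, as they did in 31 of the 50 genes and in 21.4% of all genes. Each of the 3 calls was lost in the fit of the 8 h libraries alone, and the count was 0 without KO 8 h replicate 1 or WT 8 h replicate 2. It was 1 when KO 8 h replicate 2 or WT 8 h replicate 1 was left out, 5 and 6 without KO 0 h replicate 1 and 2, and 7 without the 3 KO libraries numbered 1.

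Among genes that did not pass at 8 h, Rfc1 (-0.32 ± 0.09) and Timeless (-0.34 ± 0.09) were nearest to the threshold on the lower side, with edgeR adjusted p of 0.0698 and 0.0724. The log2 fold change was above 0 in 6 genes, none of which passed. Clspn had 0.508 and 1.21 CPM in the KO libraries, against 0.496 and 0.293 CPM in the WT libraries (log2 fold change 1.11 ± 0.67, edgeR adjusted p = 0.53), and Pclaf had 0.677 and 2.04 CPM in the KO libraries, against 0.661 and 0.761 CPM in the WT libraries (0.94 ± 0.65, adjusted p = 0.608). In both genes 1 KO library was high and the other lay near the WT libraries. The others were Tcf19 (0.24), Orc5 (0.15), Dscc1 (0.15) and Orc2 (0.03).

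In resting cells, before any stimulation, the direction was the opposite for a subset of the genes. In the libraries of 0 h, 11 genes were higher in KO than in WT cells and 1 was lower, where 4.63% of all genes were higher, 1.07% lower and 5.7% changed in either direction. The median log2 fold change over the 50 genes was 0.17, against -0.03 over all genes. The 11 were Orc1, Ticrr, Gins1, Gins2, Pole, Chtf18, Pclaf, Lig1, Clspn, Chaf1a and Uhrf1. Uhrf1 had 27.4 and 23.9 CPM in the KO libraries, against 9.85 and 7.40 CPM in the WT libraries (log2 fold change 1.57 ± 0.13, edgeR adjusted p = 1.8e-05). Gins2 had 3.58 and 2.91 CPM in the KO libraries, against 0.708 and 0.962 CPM in the WT libraries (log2 fold change 1.95 ± 0.25, edgeR adjusted p = 0.000376). Most of the 11 were barely expressed in resting WT cells: 8 of them averaged under 5 CPM there. Chaf1a had 8.97 and 7.76 CPM in the KO libraries, against 3.36 and 2.89 CPM in the WT libraries (log2 fold change 1.42 ± 0.19, edgeR adjusted p = 0.000506). Ticrr had 4.24 and 4.26 CPM in the KO libraries, against 1.48 and 0.842 CPM in the WT libraries (log2 fold change 1.87 ± 0.26, edgeR adjusted p = 0.000632). Pole had 11.3 and 12.8 CPM in the KO libraries, against 6.61 and 6.62 CPM in the WT libraries (log2 fold change 0.87 ± 0.15, edgeR adjusted p = 0.00295). No KO library overlapped a WT library in these 5 genes, and KO lay above WT without overlap in 29 of the 50 genes and in 19.7% of all genes.

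Timeless was the 1 gene lower at 0 h and had 54.5 and 56.0 CPM in the KO libraries, against 70.2 and 75.5 CPM in the WT libraries (log2 fold change -0.40 ± 0.09, edgeR adjusted p = 0.0192). Orc3 (-0.21 ± 0.08), Rpa1 (-0.19 ± 0.09), Donson (-0.12 ± 0.10) and Cdc7 (-0.10 ± 0.10) were next on the lower side and did not pass. Rpa1 had 194 and 200.3 CPM in the KO libraries, against 222 and 228 CPM in the WT libraries, with no overlap. The 11 calls on the higher side became 6 without KO 0 h replicate 1, 7 without WT 0 h replicate 2 and 6 in the fit of the 0 h libraries alone, and the Timeless call was lost without KO 0 h replicate 1, either WT 0 h library or either WT 24 h library. Uhrf1, Gins2, Chaf1a, Ticrr and Pole kept their calls in all 20 alternatives run.

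Markers of other cells moved with genotype in the same resting libraries. The summed level of 12 markers of neutrophils and granulocyte progenitors was 525 and 532 CPM in the KO libraries at 0 h, against 57.8 and 14.0 CPM in the WT libraries, and 9 of the 12 were higher in KO. The summed level of 8 basophil and mast cell markers was 300 and 786 CPM in the KO libraries, against 42.7 and 22.6 CPM in the WT libraries, with 1 of 8, Kit, past the threshold. The 8 markers of CD8 T and NK cells summed to 216 and 118 CPM in the KO libraries, against 67.0 and 57.7 CPM in the WT libraries, and 3 of the 8 were higher in KO. Of the CD8 chains, Cd8a was at most 2.42 CPM in all 12 libraries, and Cd8b1 had 21.4 and 17.0 CPM in the KO libraries at 0 h, against 14.6 and 17.1 CPM in the WT libraries. Of 20 genes of G2 and mitosis, 17 were also higher in KO at 0 h, and the median log2 fold change of the 20 was 2.04. At 8 h 0 of these 20 passed the test and their median log2 fold change was 0.97. At an unadjusted p under 0.05, 10 of them were higher in KO at 8 h and 0 lower in edgeR. Markers of monocytes, macrophages and dendritic cells summed to 108 and 39.2 CPM in KO and 36.4 and 21.8 CPM in WT libraries at 0 h. The 7 B cell markers summed to 536 and 369 CPM in KO and 492 and 456 CPM in WT libraries, and 1 of the 4 tested was higher in KO. Cd79b had 3.96 and 3.46 CPM in KO, against 1.30 and 1.32 CPM in WT libraries. The 6 erythroid markers summed to 207 and 109 CPM in KO, against 282 and 93.0 CPM in WT libraries. No marker of these lists was at 0 in all 12 libraries. The part of these other cells in the 0 h result was not tested. Fits without the 3 KO libraries of one number leave 1 KO library in each group. The granulocyte sums of the 2 KO libraries at 0 h were alike (525 and 532 CPM), so such fits do not test the part of these cells. At 24 h the granulocyte markers summed to 25.7 and 101 CPM in the KO libraries, against 1.02 and 0.70 CPM in the WT libraries, and the basophil markers to 167 and 595 CPM, against 6.03 and 5.73 CPM. Of the granulocyte markers 6 of 12 were higher in KO at 24 h (median log2 fold change 5.65), and of the basophil and mast cell markers 8 of 8 (median 6.05). The CD8 T and NK cell markers summed to 161 and 101 CPM in the KO libraries at 24 h, against 31.6 and 29.3 CPM in the WT libraries, with 3 of 8 higher in KO. The B cell markers summed to 90.0 and 82.8 CPM, against 230 and 245 CPM, with 1 of the 4 tested, Ighm, lower in KO. The 3 KO libraries numbered 2 hold the higher granulocyte and basophil sums at all 3 times. In KO 24 h replicate 1 these sums, 25.7 and 167 CPM, were also above those of both WT 24 h libraries. The part of these other cells in the 24 h result was not tested.

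An interaction term tested whether the genotype difference at 8 h departed from that at rest. It was negative and past the threshold for 8 of the 50 genes and positive for 0, where 0.733% of all genes were called as negative, 0.261% as positive and 0.995% in either direction. The 8 were Gins2 (-2.46 ± 0.31), Orc1 (-2.24 ± 0.45), Uhrf1 (-2.18 ± 0.18), Gins1 (-2.14 ± 0.46), Ticrr (-1.95 ± 0.40), Chaf1a (-1.48 ± 0.28), Pole (-1.46 ± 0.20) and Lig1 (-0.92 ± 0.19). Beside the 0, 0 genes were positive at an unadjusted p under 0.05 in edgeR and DESeq2 called 0. Gins2 shows the pattern: it had 3.58 and 2.91 CPM at 0 h and 3.72 and 3.25 CPM at 8 h in KO cells, against 0.708 and 0.962 CPM at 0 h and 5.29 and 4.68 CPM at 8 h in WT cells. Both KO libraries were above both WT libraries at rest and below them at 8 h, where the difference alone did not pass the test (-0.52 ± 0.19). The marker sums of other cells also changed between 0 and 8 h, and their part in the interaction was not tested. The count of 8 was 5 without KO 0 h replicate 1, WT 8 h replicate 2 or WT 24 h replicate 1. It was 3 when WT 0 h replicate 2 or WT 8 h replicate 1 was left out. With the replicate number as a block within each genotype, an alternative added after seeing the data, 10 of the 50 genes were negative, with Pold1 and Chtf18 also past the threshold, and 338 of all genes were called in place of 156 (1.49% negative and 0.67% positive).

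The size of the difference at 24 h is set here beside the WT level at rest. The 10 genes with the lowest WT level at 0 h, all at or under 0.804 CPM per kb of exon, had a median log2 fold change of -3.55 at 24 h, against -2.29 for the other 40. Across the 50 genes, Spearman's rho between the WT level at 0 h (CPM per kb) and the log2 fold change at 24 h was 0.65. This is a description across genes of the same libraries, which are not independent replicates, and low genes have fewer counts. The 11 genes that were higher in KO at 0 h had a median of -3.73 at 24 h, against -2.28 for the other 39. Of the 10 genes lowest at rest, 8 are among these 11, so both groupings hold largely the same genes and are not separate results. The 0 h and 24 h libraries are different ones, but all 12 share the estimate of spread.

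On the scale per kb of exon, the ratio of the highest to the lowest subunit was lower at 24 h than at 0 h for ORC and GINS in both genotypes, but not for every complex. At 0 h the highest ORC subunit, Orc3, was 18.1 times the lowest, Orc1, in KO cells, with 11.1 and 0.613 CPM per kb, and 55.7 times in WT cells, with 12.8 and 0.230 CPM per kb. At 24 h the highest was 11.2 times the lowest in KO cells (Orc2 at 17.7 and Orc1 at 1.58 CPM per kb) and 6.57 times in WT cells (Orc6 at 42.5 and Orc5 at 6.47 CPM per kb). For GINS at 0 h, Gins4 was 27.5 times Gins2 in KO cells and 95.8 times in WT cells. At 24 h the highest subunit (Gins4) was 11.7 times the lowest (Gins2) in KO cells at 24 h, against 4.75 times (Gins4 over Gins3) in WT cells at 24 h. The CAF-1 subunits were nearly level at 24 h in both genotypes, with Chaf1a at 1.97 and Chaf1b at 1.56 CPM per kb in KO cells, against 19.4 and 20.1 CPM per kb in WT cells. For Cdc7 and its partner Dbf4 the ratio was higher at 24 h than at 0 h in both genotypes, 1.81 against 1.43 in KO cells and 2.15 against 1.66 in WT cells. In KO cells it was also higher at 24 h for the fork protection genes (Tipin over Clspn), 20.3 against 8.98, and for polymerase delta (Pold2 over Pold3), 3.16 against 2.69, whereas in WT cells both ratios were lower at 24 h. By this scale the 5 highest of the 50 genes in WT cells at 24 h were Pcna (347), Uhrf1 (171), Dnmt1 (119), Lig1 (114) and Tipin (87.6 CPM per kb). The exon length is that of all annotated transcripts merged, so it overstates the length of a single transcript.

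Other genes of the same pathway, taken from lists drawn by function, mostly fell at 24 h. All 15 genes of helicase loading and activation fell (median log2 fold change -2.64), among them Mcm4, with 90.0 and 93.2 CPM in the KO libraries and 623 and 630.2 CPM in the WT libraries (log2 fold change -2.77 ± 0.09). Mcm10, which acts in starting the loaded helicase, had 7.67 and 7.38 CPM in the KO libraries and 161 and 145 CPM in the WT libraries (log2 fold change -4.34 ± 0.14), and Mcm5 had 124 and 124 CPM in the KO libraries and 841 and 839.8 CPM in the WT libraries (log2 fold change -2.76 ± 0.10). All 10 genes of nucleotide supply fell (median -2.86). Rrm1, the large subunit of ribonucleotide reductase, had 64.2 and 74.0 CPM in the KO libraries and 531 and 486 CPM in the WT libraries (log2 fold change -2.88 ± 0.11), and Tyms, which makes thymidylate, had 15.5 and 15.2 CPM in the KO libraries and 154 and 144 CPM in the WT libraries (log2 fold change -3.29 ± 0.13). Of 19 other fork enzymes, 12 fell and 1, the polymerase delta subunit Pold4, rose (median -0.89), with Chek1, the checkpoint kinase downstream of claspin, at 7.84 and 8.40 CPM in the KO libraries and 73.8 and 80.2 CPM in the WT libraries (log2 fold change -3.24 ± 0.19). Mms22l and Tonsl, partners at broken forks, had log2 fold changes of -2.35 and -2.43. Of 10 other chromatin replication factors, 9 fell (median -0.96), led by Hells, a remodeller that aids DNA methylation, with 23.2 and 22.7 CPM in the KO libraries and 355 and 321 CPM in the WT libraries (log2 fold change -3.88 ± 0.13). Hat1, which acetylates new histone H4, had -1.62, and Cdca7, the partner of Hells, had -1.54. All 20 genes of G2 and mitosis fell as well (median -3.10), with log2 fold changes of -3.01 for Kif20a, -3.15 for Kif23 and -2.88 for Bub1b.

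At 0 h, 16 of the 54 genes in these lists other than G2 and mitosis were higher in KO and 0 lower, and at 8 h 6 were lower and 0 higher. Beside these, edgeR at an unadjusted p under 0.05 gave 2 lower at 0 h and 2 higher at 8 h. The shares of all genes called, given above, apply to these counts as well.

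Counts at repeats inside introns gave a second reading of the same genes from another table. LINE, SINE, LTR and DNA repeats that lie in an intron and in no exon of any gene are spliced out of the mature RNA, so reads there come from unspliced RNA or from the repeat itself. Of the 50 genes, 48 had at least 1 such locus and 43 passed the filter, with 1538 loci in all. At 24 h these counts fell in KO cells for 30 of the 43 genes and rose for 0, where 2.26% of 10561 genes fell, 6.51% rose and 8.77% changed in either direction. The median log2 fold change was -1.67 over the 43 genes, against 0.40 over all genes. At an unadjusted p under 0.05, edgeR gave 33 lower and 1 higher. Some of the 30, such as Gins2, Dscc1 and Tcf19, had 10 or more counts only in the WT 24 h libraries. Gins2 had 3 and 1 counts in the KO libraries at 24 h, against 20 and 14 in the WT libraries. Such genes passed the filter only because they were high in WT cells at 24 h. Their falls are thus not independent of the filter. The whole set summed to 1223 and 1402 counts in the KO libraries, against 4084 and 3455 counts in the WT libraries.

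Uhrf1, Prim1 and Gins1 are examples of genes with strong falls in these counts. Uhrf1 had 13 and 15 intronic repeat counts in KO, against 189 and 191 in WT libraries (log2 fold change -3.75 ± 0.37, edgeR adjusted p = 1.7e-07). Prim1 had 46 and 40 counts in KO, against 215 and 204 in WT libraries (log2 fold change -2.28 ± 0.31, edgeR adjusted p = 2.21e-05). Gins1 had 14 and 31 counts in KO, against 188 and 144 in WT libraries (log2 fold change -2.87 ± 0.41, edgeR adjusted p = 4.67e-05). These 3 were picked after their values were seen, as genes with many counts and strong falls. Rfc2 had 75 and 77 counts in KO, against 224 and 202 in WT libraries, and a smaller fall (-1.48 ± 0.26). Some genes that fell in gene counts did not pass here. They include Ticrr (-0.94 ± 0.67), Pola1 (-0.51 ± 0.47), Gins4 (-0.26 ± 0.47) and Pclaf (-1.51 ± 0.63). The genes whose exon counts did not pass at 24 h did not pass here either. Orc4 had 135 and 123 counts in KO, against 80 and 81 in WT libraries (log2 fold change 0.68 ± 0.31), and it is the 1 gene that was higher at an unadjusted p. Orc3 had 90 and 90, against 60 and 67 (0.51 ± 0.28), and Orc5 had 44 and 35, against 52 and 36 (-0.15 ± 0.38).

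At 8 h and at 0 h, 0 of the 43 genes were called in either direction in the intronic counts, where 0.0852% and 0.0379% of all genes were, and the medians were -0.03 and -0.01. At an unadjusted p under 0.05, edgeR gave 0 in either direction at 8 h, and 4 higher and 1 lower at 0 h. With TMM factors taken from the intronic sums, the median of all genes moved to 0.05, that of the 43 genes to -2.03, and 32 fell. Without KO 24 h replicate 1, 19 fell. Intronic counts are low: in 30 of the 48 genes with a locus no library had 100 counts. Whether DNA in the RNA or a read's strand adds to them was not tested.

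**Figure D5:**
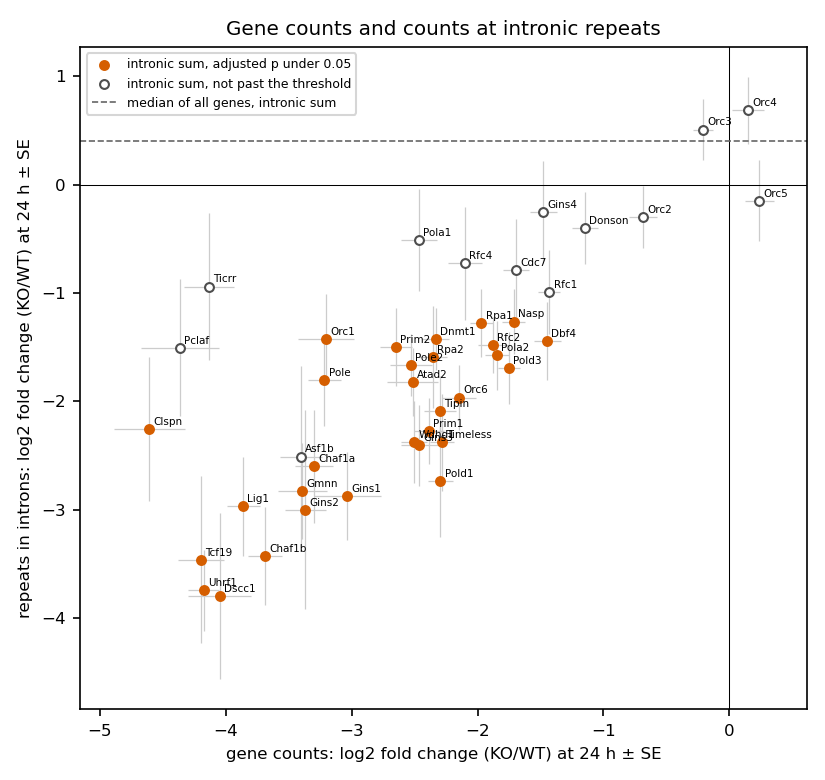
Log2 fold change of KO over WT at 24 h ± SE, from gene counts (horizontal) and from counts at repeats in introns (vertical), for the 43 genes with enough intronic counts. Filled points (30) passed the test in the intronic counts, all below 0, and the dashed line marks the median of all genes at 0.40.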

How the data were processed

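RNA of 12 libraries of naive CD4+ T cells was sequenced as paired reads of 150 bases from stranded total RNA libraries depleted of ribosomal RNA, per the labels' protocols. The authors deposited whole-number read counts per gene and per repeat locus, not normalized; fastp 0.12.4, STAR 2.7.1a and the build mm10 are named in the submitters' processing notes. The counting tool and its use of strand do not appear in the sources at hand. Counting across overlapping or copied genes can therefore split or add reads. This also holds for genes whose overlap is not named above, such as Gins2 (with Gse1) and Rfc4 (with Eif4a2).

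Of 54232 genes, 54165 had a symbol in GENCODE M21 (GRCm38), and the 50 genes were matched by symbol and ID. Library totals and TMM factors scaled the counts to CPM, and CPM per kb used merged exon lengths. Genes were kept by filterByExpr (minimum count 10, minimum total 15), which removed 38553. A quasi-likelihood model over all 12 libraries (edgeR 4.0.16, limma 3.58.1, R 4.3.3; 6 residual degrees of freedom) tested KO against WT at each time, each interval within a genotype and their interaction, with adjustment over 15679 genes. Counts at repeats in introns were summed per gene and fitted alike, with library sizes and TMM factors of the gene table. The fit was checked on simulated data. Figures and tables used pandas 2.3.3, numpy 2.4.6 and matplotlib 3.10.9. RefSeq promoter windows matched 40 of the 50 genes by symbol.

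Genes were named by role: the 2 largest and the smallest difference at 24 h, and 5 per direction at 0 h and 8 h. Other genes are named where a count or list is described, and those were picked after their values were seen. The 50 genes, the other lists and the tests were chosen with earlier results of these data known. The model was refitted with RLE scaling, with all genes kept, with genes of at least 1 CPM in at least 2 libraries, with a replicate block, for 1 time alone and with each library left out, and DESeq2 1.42.0 was run beside it. Intronic sums were also taken over loci in 1 gene only. Leaving out the 3 KO libraries of one number, TMM factors from intronic sums, and a block by replicate number within each genotype for the intervals and interactions (4 residual degrees of freedom), were added after seeing the data. Within a genotype, libraries with one number deviated together across times in 6 of 6 pairs of groups (correlations over 0.1, of 0.15 to 0.50), and between KO and WT in 4 of 9 (-0.27 to 0.40); the labels do not give what a number marks.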

Additional observations from a re-analysis of the deposited data

Results flagged for a closer look

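The genotype difference of 47 of the 50 genes was more negative at 24 h than at 8 h by the interaction term (median -2.07 on the log2 scale over the 50 genes, 0.00 over all genes). The difference of 8 genes was more negative at 8 h than at 0 h (median -0.40 over the 50, 0.03 over all genes). Both stand here because the difference between times was itself tested. The interactions share the 8 h libraries, so these counts are not independent of each other.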

How the results depend on the processing

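The 47 genes lower at 24 h stayed a count of 47 under DESeq2 and under the replicate block. With each library left out, the number higher at 24 h was 0 to 1, the 1 being Orc5. The 3 genes lower at 8 h numbered 6 with DESeq2, 5 without a filter, 0 in the fit of the 8 h libraries alone and 7 without the KO libraries numbered 1, and 0 to 6 with each library left out. All genes called at 8 h (415) numbered 667 with DESeq2, 862 without a filter, 669 with the replicate block, 1215 without the KO libraries numbered 1 and 103 to 568 with each library left out. At 0 h, the 11 higher genes numbered 6 in the fit of the 0 h libraries alone and 6 to 13 with each library left out. The 1 lower gene numbered 0 in the fit of 0 h alone, 2 without the KO libraries numbered 2 and 0 to 1 with each library left out. All genes called at 0 h (893) numbered 464 in the fit of 0 h alone, 1895 without the KO libraries numbered 2 and 348 to 1079 with each library left out. With each library left out, the 8 genes that rose in KO cells by 8 h numbered 4 to 10, and the 8 with a more negative difference at 8 h than at 0 h numbered 3 to 12. All genes called in that interaction (156) numbered 300 with DESeq2, 445 without a filter, 338 with the block within each genotype, 304 and 284 without the KO libraries numbered 1 and 2, and 48 to 317 with each library left out. All genes called in the interaction of 24 h and 8 h (2265) numbered 1427 to 2789. The 30 genes lower in intronic counts numbered 19 to 24 with each 24 h library left out, where the lone library of an arm is assumed to vary like the other groups. Among values of single genes, 1315 kept their direction and side of the threshold, 40 lost and 5 gained a call, and none changed sign in a call. Where libraries or times were left out, fewer samples entered the fit; the cause of the other shifts was not tested. The replicate block within each genotype also moved the 15 genes that fell in WT cells by 8 h to 17 (Pole2 and Rfc5) and changed no other call of the 50 genes beyond those in the report. Within one time, the replicate differences of KO and WT libraries correlated by 0.30 at 0 h, 0.40 at 8 h and 0.05 at 24 h. The labels do not say if a number pairs KO with WT libraries. A block across both genotypes gave 4 lower at 8 h and 12 higher at 0 h. Genes under 5 CPM at rest have few counts, which limits their values at 0 h and 8 h.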

Other observations

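The 11 genes that were higher in KO cells at rest were followed through the later intervals. From 8 to 24 h, which uses none of the resting libraries, all 11 rose in KO cells (median log2 change 1.75, against 0.40 for the other 39 genes) and all 11 rose in WT cells (4.80, against 2.12). Of the 50 genes 33 rose in KO and 49 in WT cells, and of all genes tested 18.9% and 24% did. From 0 to 8 h, 9 of the 11 fell in KO cells and 0 rose, where 32.9% of all genes fell and 28.6% rose. In WT cells 5 rose and 3 fell over that interval, where 28.3% of all genes rose and 33.6% fell. These values from 0 to 8 h use the resting libraries by which the 11 were picked.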
